A study of Mus musculus with 6 samples.

Results

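The genes described here are the neutrophil-attracting chemokines *Cxcl1*, *Cxcl2*, *Cxcl3* and *Cxcl5*, their receptor gene *Cxcr2*, the cytokine gene *Csf3*, which encodes G-CSF, and the G-CSF receptor gene *Csf3r*. They were taken by gene symbol from the colon expression table, in which they were 7 of 18477 genes, and they were chosen because earlier results of these same libraries were known. Their differences between the groups are therefore given as a description. Counts of genes past a threshold are printed beside the share of all genes that passed it, and nothing is read from them.

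Male C57BL/6 mice, 6 to 8 weeks old on purchase, received 2% dextran sulphate sodium (DSS), a polymer that injures the colonic epithelium and causes colitis, in their drinking water for 7 days. Before and during this week, over 14 days, the DSS group was gavaged daily with phosphate-buffered saline and the DSS+BV group with live *Bacteroides vulgatus*, a common anaerobic gut bacterium, of a single type-culture strain. Colon RNA of 3 mice per group was sequenced, and the comparison asked which colonic genes differ when the bacterium is given during colitis. All 6 mice received DSS, so the levels are those of DSS-exposed colon in both groups, and colon without DSS was not analysed here.

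CXCL1, CXCL2, CXCL3 and CXCL5 belong to the chemokines with a glutamate-leucine-arginine (ELR) motif, which bind CXCR2, a G protein-coupled receptor carried mainly by neutrophils, and draw these cells out of the blood into injured tissue. Epithelial cells, fibroblasts, endothelium and myeloid cells can make the ligands in response to IL-1, TNF or IL-17. G-CSF, made by many of the same cells, acts through CSF3R on myeloid precursors and neutrophils, raising their production, their release from the marrow and their survival. In the colon, this axis is known for the rapid neutrophil influx that accompanies epithelial damage.

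The 4 ligand genes lie together on chromosome 5, all on the + strand (GRCm38, GENCODE annotation), in a span of 146579 bases. *Cxcl5* (Entrez gene 20311) covers chr5:90759360-90761624, *Cxcl3* (330122) chr5:90786103-90789600, *Cxcl1* (14825) chr5:90891241-90893115 and *Cxcl2* (20310) chr5:90903871-90905938, each with 4 exons. *Cxcl5* and *Cxcl3* were 24478 bases apart and *Cxcl1* and *Cxcl2* 10755 bases apart, with 101640 bases between the pairs. *Cxcr2* (12765) covers chr1:74153989-74161246, *Csf3* (12985) chr11:98701263-98703629 and *Csf3r* (12986) chr4:126024550-126044440. RefSeq promoter sequences, from 250 bases before to 50 after the annotated start, were available for 5 of the 7 genes. Stretches of 3 of them are shown because the ligands lie in a cluster and because the same 11 letters, in capitals, occur in each. The stretches run 5′ to 3′ on the + strand of GRCm38.p6, from 130 to 31 bases before the RefSeq start. They lie at chr5:90891115-90891214 for *Cxcl1*, chr5:90903769-90903868 for *Cxcl2* and chr5:90785971-90786070 for *Cxcl3*.
Cxcl1: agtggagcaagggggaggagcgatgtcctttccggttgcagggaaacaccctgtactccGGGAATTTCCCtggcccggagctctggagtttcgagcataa
Cxcl2: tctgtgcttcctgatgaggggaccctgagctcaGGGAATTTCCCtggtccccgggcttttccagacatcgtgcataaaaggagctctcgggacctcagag
Cxcl3: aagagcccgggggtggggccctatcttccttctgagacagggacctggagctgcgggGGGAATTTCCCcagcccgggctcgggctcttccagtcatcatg
The capitals lay 71 to 61 bases before the RefSeq start of *Cxcl1* (90891245), 97 to 87 before that of *Cxcl2* (90903899) and 73 to 63 before that of *Cxcl3* (90786101). These starts differ from the GENCODE starts given above, most for *Cxcl2*, so the offsets depend on the annotation. The capitals are the longest run that the 3 stretches share, and they spell a form of the site read by NF-kappaB, the transcription factor that IL-1 and TNF activate. On either strand, the run was present in 3 of the 5 promoters, from which it was read, and in 0.0426% of all 32851 RefSeq promoters of the same length. It was not in the promoters of *Cxcr2* and *Csf3r*. The AP-1 pattern TGANTCA, the C/EBP pattern TTGCNNAA and the ETS pattern AGGAAGT were each in 0 of the 5 on either strand, against 7.81%, 10.8% and 9.35% of all promoters, and TATAAA was in that of *Cxcl3* (13.6% of all). The patterns were chosen after other letters had been searched in these promoters, and a match is a description of the sequence and no evidence of binding.

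The 6 libraries held between 15293276 and 17254343 expected counts, and 14579 genes passed the filter on low counts, all 7 genes of the axis among them. When libraries were clustered on all tested genes, DSS 1 and DSS 3 grouped with DSS+BV 1, and DSS 2 grouped with DSS+BV 2 and DSS+BV 3. DSS 2 and DSS+BV 1 thus stood apart from most of their groups, and results are also given without them. Levels are in CPM, the counts of a gene scaled to library size and by TMM factors, and fold changes compare DSS+BV with DSS. The direction of every fold change follows the group labels of the libraries, which could not be checked against the data, since no gene in the table marks the mice that received the bacterium. In bulk colon RNA, fewer cells of a type and less RNA per cell cannot be told apart.

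All 7 genes were lower in DSS+BV than in DSS, and for each of them the highest DSS+BV library lay below the lowest DSS library. This was also so for 11.3% of all tested genes, and these 7 were chosen for their difference in this contrast. The fold differences ran from 3.61 for *Csf3r* to 18.0 for *Csf3*. The plot of levels by library shows the groups side by side.

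**Figure D1:**
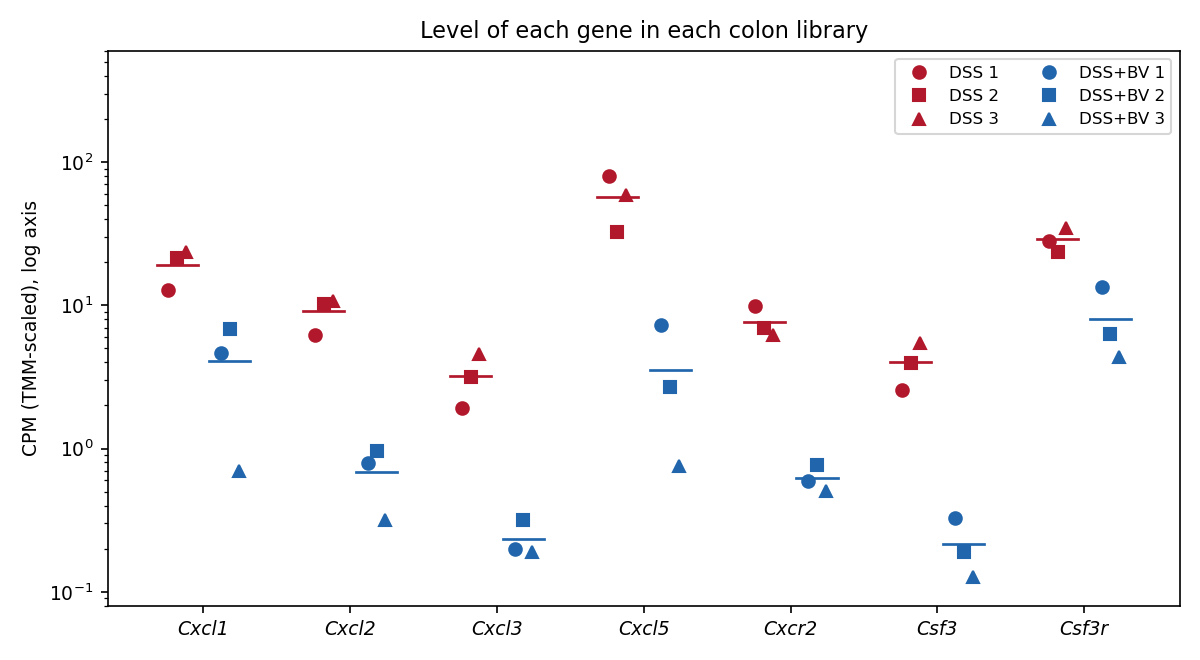
Level of the 7 genes in each colon library, in CPM on a log axis, with a line at each group mean (n = 3 mice per group). Every DSS+BV library lies below every DSS library for each gene, with the narrowest gap for *Csf3r* (13.4 against 23.7 CPM) and *Cxcl1* (6.88 against 12.8 CPM).

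*Cxcl5*, an ELR chemokine made largely by epithelial and stromal cells, was the most abundant of the ligands in DSS colon. Its levels were 80.5, 32.6 and 59.2 CPM in DSS 1, 2 and 3, and 7.26, 2.68 and 0.759 CPM in DSS+BV 1, 2 and 3. The lowest DSS library was 4.50-fold above the highest DSS+BV library, although the levels were uneven within both groups, with a coefficient of variation of 41.8% in DSS and 93.7% in DSS+BV. The mean was 57.5 ± 24.0 CPM in DSS and 3.56 ± 3.34 CPM in the DSS+BV mice (SD, n = 3 per group), and the fitted log2 fold change was -4.01 (SE 0.78, 95% interval -5.87 to -2.16) a 16.1-fold lower level.

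*Cxcl2*, known in macrophages and neutrophils themselves as an early attractant, had levels of 6.23, 10.3 and 10.8 CPM in the DSS group, against 0.792, 0.956 and 0.316 CPM in the DSS+BV group. The gap between the groups was 6.52-fold, wider than for the other ligands, although *Cxcl3* was close at 6.02-fold. The highest DSS+BV library held 15 counts of *Cxcl2* and only 5 of *Cxcl3*, so their order is uncertain. The mean was 13.1-fold lower in DSS+BV (9.09 ± 2.49 against 0.688 ± 0.332 CPM), with a log2 fold change of -3.71 (SE 0.47, 95% interval -4.82 to -2.60).

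*Cxcl3*, the ligand closest in sequence to *Cxcl2*, had levels of 1.92, 3.17 and 4.54 CPM in the DSS group, against 0.198, 0.319 and 0.190 CPM in the DSS+BV group. These low levels rested on 32, 51 and 78 counts in DSS and on 3, 5 and 3 counts in DSS+BV. From the summed counts the fold was 13.7, with an exact 95% interval of 7.44 to 27.9 that covers counting error only, and the fitted log2 fold change was -3.73 (SE 0.50, 95% interval -4.91 to -2.54). The longest run of identical bases between the *Cxcl2* and *Cxcl3* transcripts was 110 bases, so a read within it could belong to either gene. RSEM divides such reads by its estimate of each transcript's abundance, so a part of the counts of either gene may belong to the other. The counts of both genes were whole numbers in all 6 libraries and so showed no divided reads, while 8.51% of genes had a value that was not whole. Whether any read was placed with the wrong gene was not tested. *Cxcl1* shared runs of at most 23 bases with *Cxcl2* or *Cxcl3*.

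*Cxcl1*, the ligand first known as KC in mice, had levels of 12.8, 21.3 and 23.6 CPM in the DSS group, against 4.68, 6.88 and 0.695 CPM in the DSS+BV group. It had the smallest difference among the ligands, and its DSS+BV libraries were spread widely, with a coefficient of variation of 76.7%. The means were 19.2 ± 5.71 and 4.09 ± 3.14 CPM, a 4.70-fold difference with a log2 fold change of -2.23 (SE 0.72, 95% interval -3.94 to -0.52). Without DSS+BV 3, which held the lowest level, the log2 fold change was -1.73, and without DSS+BV 2 it was -2.83.

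*Cxcr2*, the receptor through which all 4 ligands act, measured 9.94, 6.90 and 6.23 CPM in the DSS libraries, against 0.594, 0.764 and 0.506 CPM with the bacterium. The groups were separated by 8.15-fold, the widest gap of the 7 genes, and the libraries within each group were close to each other. The gap of *Csf3* was close at 7.81-fold and was set by 5 counts, so this order is uncertain. The mean was 7.69 ± 1.98 CPM in DSS, against 0.621 ± 0.132 CPM in DSS+BV, with a log2 fold change of -3.61 (SE 0.34, 95% interval -4.43 to -2.80) or 12.2-fold. The DSS+BV level rested on 9, 12 and 8 counts.

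*Csf3*, which encodes G-CSF, had levels of 2.57, 3.98 and 5.47 CPM in the DSS group, against 0.330, 0.191 and 0.126 CPM in the DSS+BV group. It had the largest fold difference of the 7 genes, from 43, 64 and 94 counts in DSS to 5, 3 and 2 counts in DSS+BV. The fitted log2 fold change was -4.17 (SE 0.51, 95% interval -5.39 to -2.96), and the summed counts gave an 18.8-fold difference with an exact 95% counting interval of 10.002 to 39.8.

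*Csf3r*, the G-CSF receptor gene of the myeloid lineage, had levels of 28.3, 23.7 and 34.9 CPM in the DSS group, against 13.4, 6.31 and 4.36 CPM in the DSS+BV group. It had the smallest difference of the 7 genes, with DSS+BV 1 well above the other DSS+BV libraries. The means were 29.0 ± 5.66 and 8.02 ± 4.75 CPM, a 3.61-fold difference with a log2 fold change of -1.85 (SE 0.43, 95% interval -2.87 to -0.84).

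In the edgeR fit over all genes, 1 of the 7 genes, *Cxcr2*, passed both thresholds (Benjamini-Hochberg adjusted p under 0.05 and a log2 fold change beyond 1 in size), where 13 of 14579 genes (0.0892%) did, all of them lower in DSS+BV. The median log2 fold change of the 7 genes was -3.71, beside -0.01 over all tested genes. With DESeq2, the tool named in the study's methods, 7 of the 7 passed, where 2.01% of 16155 genes did, 1.73% in the lower direction. The *Cxcr2* call was lost when any single library was left out and with the replicate number as a block. DSS 2 and DSS+BV 1 were picked because they clustered with the other group in these same data, so leaving them out favours more calls. With DSS 2 and DSS+BV 1 left out together, 5 of the 7 passed, *Cxcl1* and *Cxcl3* being the others, where 615 of 14654 genes (4.2%) did, 2.27% in the lower direction. In that fit the log2 fold changes ran from -5.31 for *Cxcl5* and -4.59 for *Csf3* to -2.54 for *Csf3r* and -2.24 for *Cxcl1*. *Cxcl2*, *Cxcr2* and *Cxcl3* then stood at -3.71, -3.62 and -3.62.

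**Figure D2:**
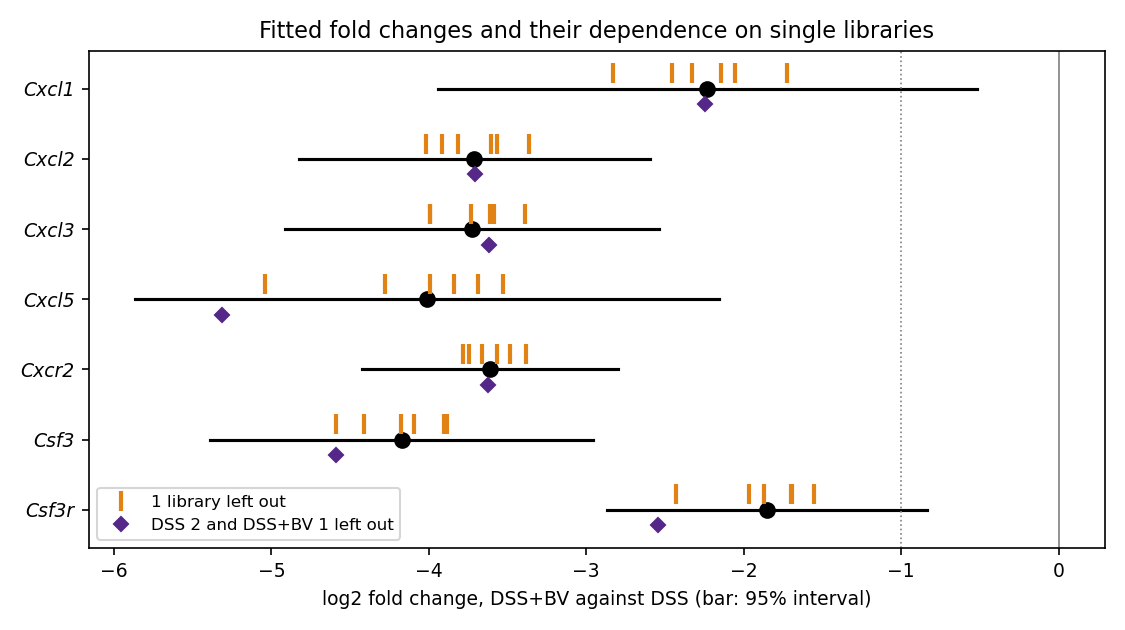
Fitted log2 fold change of each gene (x axis, DSS+BV against DSS), with its 95% interval as a bar and vertical marks for the fits that leave out 1 library each and diamonds for the fit without DSS 2 and DSS+BV 1. All values lie below 0, and *Cxcl5* moved most between libraries left out, from -5.04 to -3.53.

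The libraries did not rank alike for all 7 genes. DSS 1 held the lowest DSS level of *Cxcl1*, *Cxcl2*, *Cxcl3* and *Csf3*, and the highest of *Cxcl5* and *Cxcr2*. DSS+BV 3 held the lowest DSS+BV level of each of the 7 genes, by very few counts for some. For *Cxcl3*, DSS+BV 1 and DSS+BV 3 both had 3 counts, so only the scaling set their order. The lowest and next counts were 8 and 9 for *Cxcr2* and 2 and 3 for *Csf3*.

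To compare levels between genes, CPM was divided by transcript length in kilobases. In DSS, the order was *Cxcl5* (36.5 ± 15.2 CPM per kb), *Cxcl1* (20.2 ± 5.995), *Csf3r* (8.32 ± 1.63), *Cxcl2* (8.19 ± 2.24), *Cxcl3* (3.16 ± 1.29), *Csf3* (2.84 ± 1.03) and *Cxcr2* (2.52 ± 0.649). The step from *Cxcl1* to *Csf3r* and the step from *Cxcl2* to *Cxcl3* separated genes whose libraries did not overlap, whereas the other neighbours overlapped. In DSS 2, for example, *Cxcl1* (22.4 CPM per kb) was above *Cxcl5* (20.7 CPM per kb). In DSS+BV, *Cxcl1* came first (4.29 ± 3.29 CPM per kb), then *Csf3r* (2.30 ± 1.36), *Cxcl5* (2.26 ± 2.12), *Cxcl2* (0.620 ± 0.299), *Cxcl3* (0.232 ± 0.071), *Cxcr2* (0.204 ± 0.0432) and *Csf3* (0.153 ± 0.0735). There, the libraries of each neighbouring pair overlapped. Within single libraries, *Cxcl5* was above *Cxcl2* and *Cxcl2* above *Cxcl3* in 3 of 3 DSS+BV mice, and *Cxcl3* was above *Csf3* in 3 of 3 DSS mice, while the other overlapping neighbours kept their order in 2 of 3.

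Summed over the 4 ligands, the level was 72.0, 55.5 and 76.5 CPM per kb in DSS and 10.4, 10.1 and 1.68 CPM per kb in DSS+BV. *Cxcl5* made up 71.0, 37.4 and 49.1% of this sum in DSS and 44.2, 16.8 and 28.6% in DSS+BV. The share of *Cxcl1* was 18.6, 40.3 and 32.3% in DSS and 47.1, 71.5 and 43.4% in DSS+BV. The *Cxcl5* shares of the groups overlapped, because DSS+BV 1 exceeded DSS 2, while the *Cxcl1* share was higher in every DSS+BV library than in every DSS library. That separation was narrow, with 43.4% in DSS+BV 3 against 40.3% in DSS 2. The shares of DSS+BV 3 rested on few counts, 11 for *Cxcl1* and 12 for *Cxcl5*. *Cxcl2* and *Cxcl3* together held the remainder, with shares that overlapped between the groups.

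**Figure D3:**
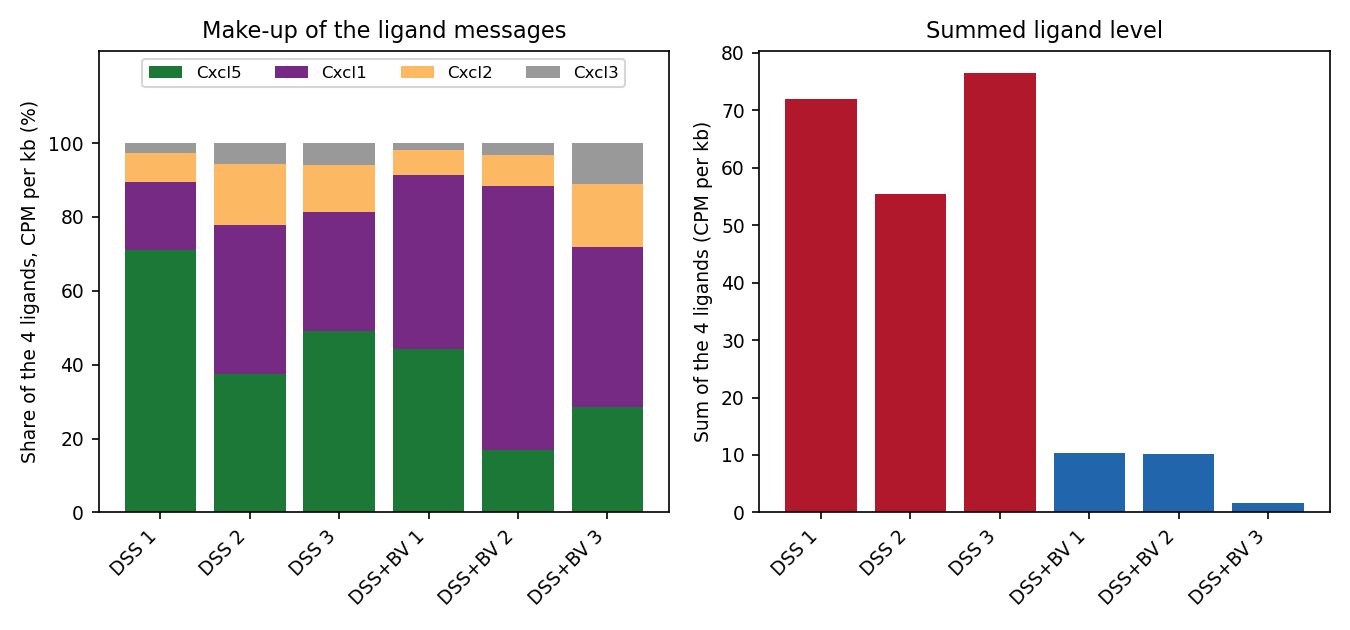
Share of each ligand in the summed ligand level of every library (per cent of CPM per kb) and the sum itself (CPM per kb). *Cxcl1* makes up 18.6 to 40.3% in DSS and 43.4 to 71.5% in DSS+BV, whereas the sum is at least 55.5 in DSS and at most 10.4 in DSS+BV. The 43.4% is that of DSS+BV 3 and rests on 11 *Cxcl1* counts.

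The receptors differed in how far they were lower. The ratio of *Csf3r* to *Cxcr2*, both per kilobase, was 2.49, 3.004 and 4.91 in DSS and 19.7, 7.22 and 7.55 in DSS+BV. The groups did not overlap, and DSS+BV 1 was the highest by far. The ratio of *Csf3r* to *Csf3* per kilobase was 4.46, 2.42 and 2.59 in DSS and 16.5, 13.4 and 14.004 in DSS+BV, again without overlap. The *Csf3* levels in DSS+BV 1, 2 and 3 rested on only 5, 3 and 2 counts. The size of these DSS+BV ratios and their closeness to each other are therefore uncertain. The summed ligands over *Cxcr2* gave 22.1, 24.5 and 37.4 in DSS and 53.5, 40.2 and 10.1 in DSS+BV, which overlapped.

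**Figure D4:**
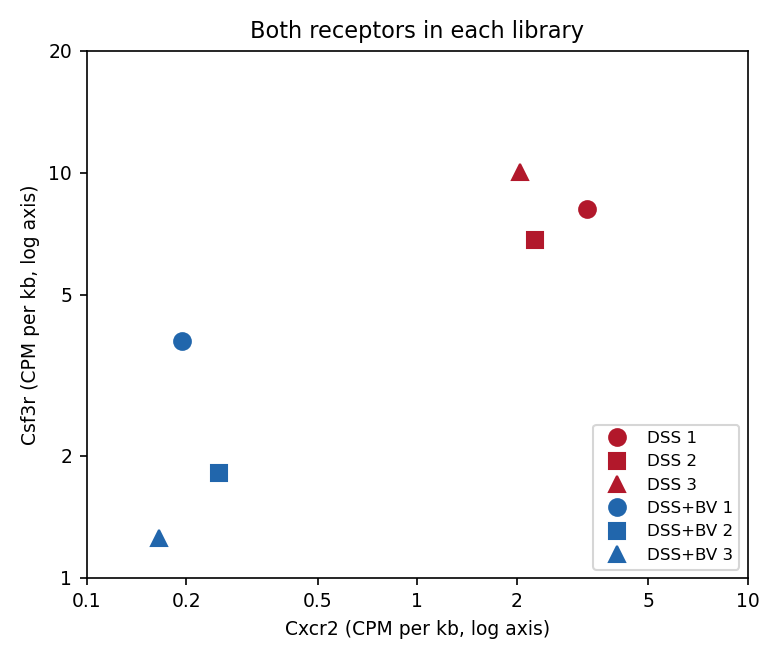
Level of *Csf3r* (y axis) against *Cxcr2* (x axis) in each library, in CPM per kb on log axes. The DSS+BV libraries lie at *Cxcr2* levels of 0.166 to 0.251 with *Csf3r* between 1.25 and 3.85, and the DSS libraries at 2.05 to 3.26 with *Csf3r* between 6.80 and 10.04.

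The chromosome 5 region holds further genes, taken here by position within 200000 bases of the ligands. *Ppbp*, which encodes the platelet ELR chemokine CXCL7, lies between *Cxcl5* and *Cxcl3* and had 10, 56 and 28 counts in DSS and 0, 4 and 3 counts in DSS+BV. The groups did not overlap, but the difference did not pass the edgeR test (log2 fold change -3.60, SE 0.97, adjusted p = 0.299). *Pf4*, the neighbouring platelet chemokine gene without the ELR motif, had 23.9 ± 12.1 CPM in the DSS group, against 10.2 ± 1.86 CPM in the DSS+BV group (log2 fold change -1.23, SE 0.39, adjusted p = 0.334). *Cxcl15*, an ELR chemokine known from the lung, had 0 counts in all 6 libraries, which allows up to 3 counts or 0.175 to 0.198 CPM in a library. Outside the chemokines, *Rassf6* (log2 fold change 0.09, SE 0.15) and *Mthfd2l* (0.12, SE 0.21) had differences near 0. The epidermal growth factor family genes *Epgn* (-1.40, SE 0.63, adjusted p = 0.425) and *Ereg* (-0.30, SE 0.37, adjusted p = 0.758) did not pass the test either.

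**Figure D5:**
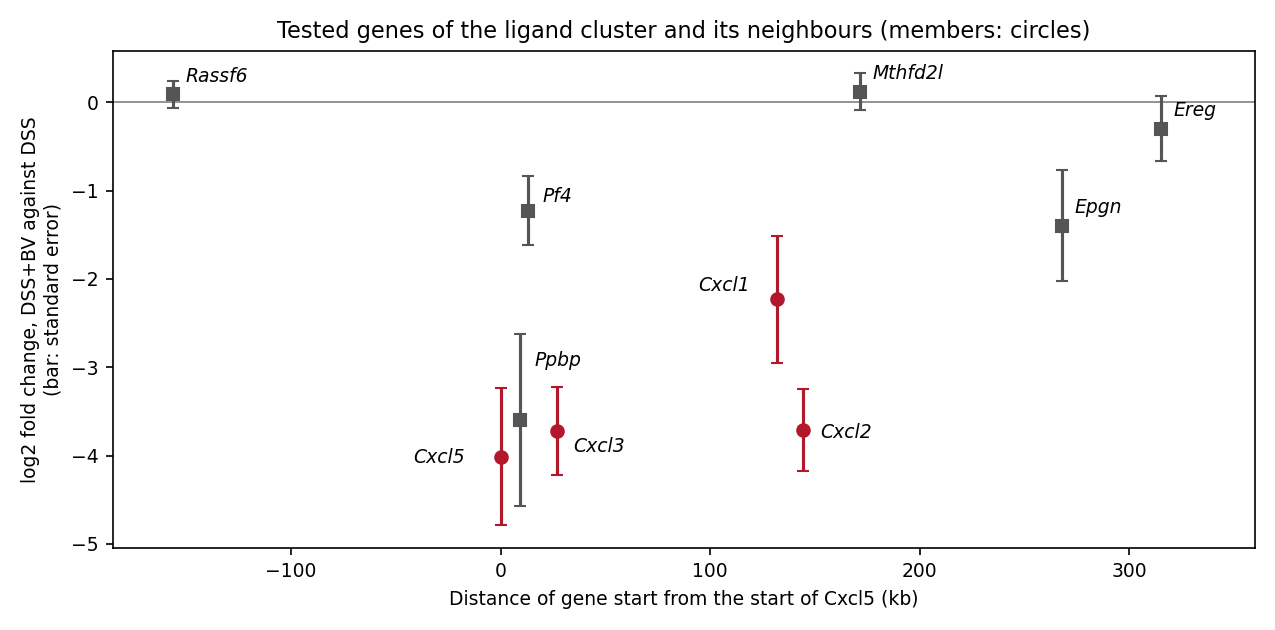
Fitted log2 fold change (y axis, bars are standard errors) of the tested genes within 200000 bases of the ligands, against the distance of the gene start from that of *Cxcl5* in kb. The 4 ligands (circles) lie between -4.01 and -2.23, and *Rassf6* and *Mthfd2l* at the sides lie at 0.09 and 0.12.

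Other genes of the axis were taken from lists written with earlier results of these data known, and 0 of them passed the edgeR thresholds. DESeq2 called 6 of them, all lower in DSS+BV, beside 2.01% of all genes in either direction and 1.73% lower. With DSS 2 and DSS+BV 1 left out together, edgeR called 11 of them, beside 4.2% of all genes in either direction. The numbers tested are given list by list below, and the lists share some genes. At an unadjusted p under 0.05, 9.12% of all tested genes were lower in DSS+BV and 3.4% were higher. Of the other CXCR1 and CXCR2 ligands and receptors, 2 of 4 could be tested, *Ppbp* and *Ackr1*, the atypical chemokine receptor of venules (log2 fold change -1.03, SE 0.39, adjusted p = 0.382). *Cxcr1*, the second receptor, had too few counts.

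Among the CXC chemokines without the ELR motif and their receptors, which attract lymphocytes and other cells rather than neutrophils, 12 genes were tested and 4 had an unadjusted p under 0.05. All 12 had a log2 fold change below 0, with a median of -0.56. The most abundant were *Cxcl13*, the B-cell chemokine gene, at 268 ± 214 CPM in the DSS group, against 53.9 ± 35.5 CPM in the DSS+BV group (adjusted p = 0.358), and *Cxcl12*, the stromal ligand of CXCR4, at 261 ± 68.0 and 156 ± 30.8 CPM (adjusted p = 0.336). The *Cxcl13* libraries overlapped between the groups, and the *Cxcl12* libraries did not.

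Of the other colony-stimulating factors and their receptors, 12 were tested, 10 had a log2 fold change below 0, 4 had an unadjusted p under 0.05, and the median was -0.86. *Csf1r*, the receptor that maintains macrophages, had a log2 fold change of -0.90 (SE 0.42, adjusted p = 0.441), and *Kitl*, which encodes stem cell factor, one of 0.09 (SE 0.22, adjusted p = 0.891).

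The list of inducers, which holds the cytokines, receptors and transcription factors that turn on CXCR2 ligands and G-CSF, had 23 tested genes, of which 10 had an unadjusted p under 0.05 and a lower level in DSS+BV and 1 a higher one. The median log2 fold change was -0.33. *Nfkb1*, a subunit of NF-kappaB, had 103 ± 8.87 CPM in the DSS group, against 98.4 ± 7.89 CPM in the DSS+BV group (log2 fold change -0.07, SE 0.13), and *Tnfrsf1a*, a TNF receptor, one of -0.45 (SE 0.23). Chosen after their values were seen, because DESeq2 called them, were *Cebpb*, *Il6* and *Osm*. *Cebpb*, a transcription factor of emergency granulopoiesis, had 33.6, 25.6 and 33.3 CPM in the DSS group, against 12.3, 14.5 and 10.2 CPM in the DSS+BV group, which did not overlap (log2 fold change -1.32, SE 0.20, edgeR adjusted p = 0.123). The cytokine genes *Il6* (log2 fold change -2.71, SE 0.59, edgeR adjusted p = 0.222) and *Osm* (-1.98, SE 0.47, edgeR adjusted p = 0.245) did not overlap between the groups either. Also named after their values were seen are the IL-1 and TNF genes. *Il1b* (-1.59, SE 0.65, edgeR adjusted p = 0.396) and *Tnf* (-1.03, SE 0.36, edgeR adjusted p = 0.356) did not overlap between the groups. *Il1a* did (-1.31, SE 0.54, edgeR adjusted p = 0.398). Of the 23 tested inducers, 5 had a log2 fold change above 0. The IL-17 genes *Il17a* and *Il17f*, which encode inducers of these chemokines in epithelium, had too few counts to be tested.

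The 11 genes that brake these messages, such as RNA-decay factors, had 2 with an unadjusted p under 0.05 and a median log2 fold change of -0.39. The most abundant were the RNA-decay factors *Zfp36l2* (0.12, SE 0.17) and *Zfp36l1* (-0.57, SE 0.28). Of 19 tested genes of CXCR2 signalling, 0 were lower and 1 higher at an unadjusted p under 0.05. That gene was *Plcb3*, a phospholipase C that acts below G proteins (log2 fold change 0.43, SE 0.18, adjusted p = 0.395), and *Gnb1*, a G protein subunit, stood at 0.12 (SE 0.14). Of 20 tested genes of G-CSF receptor signalling, 1 was lower and 1 higher by the same criterion, with *Stat3*, the main transcription factor of this pathway, at -0.36 (SE 0.16, adjusted p = 0.427) and *Jak1* at -0.20 (SE 0.20).

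Of 20 neutrophil markers, 13 were tested and edgeR called 4 lower, namely *S100a8*, *S100a9*, *Retnlg* and *Mmp8*, beside 0.0892% of all tested genes. Of the 13, 12 had a log2 fold change below 0, with a median of -3.24. At an unadjusted edgeR p under 0.05, 10 of the 13 were lower, beside 9.12% of all tested genes. *S100a8*, an abundant calcium-binding protein gene of neutrophils, had 46.3, 30.4 and 39.1 CPM in the DSS group, against 1.85, 1.47 and 2.09 CPM in the DSS+BV group. *Elane*, a granule protease gene of immature neutrophils, was at 0 in all 6 libraries, and *Mpo*, *Ctsg* and *Camp* were at 0 in some libraries of both groups and at most 0.233 CPM in the others. *Ngp* had 1.198, 0.808 and 0.815 CPM in DSS, while the DSS+BV libraries were at 0, 0 and 0.0632 CPM, and *Mrgpra2b* and *Stfa2l1* were also at 0 in DSS+BV libraries only. The granule gene *Ltf* had 18.3, 0.373 and 34.0 CPM in DSS and overlapped with DSS+BV (2.11, 0.764 and 0.948 CPM). The neutrophil markers summed to 619 to 1316 CPM in DSS, against 233 to 678 CPM in DSS+BV. Most of these sums came from *Ly6g*, which ranged from 19.1 to 854 CPM, and *Cd177*, the 1 tested marker with a log2 fold change above 0 (0.23, SE 0.61, edgeR adjusted p = 0.899). *Cd177* had 98.9, 308 and 74.1 CPM in DSS, with 282, 99.4 and 183 CPM in DSS+BV. Without *Ly6g*, the sums ran from 377 to 543 CPM in DSS, against 140 to 376 CPM in DSS+BV, and without both genes from 235 to 387 CPM, against 31.1 to 94.0 CPM. *Ltf*, *Ly6g* and *Cd177* are named here after their values were seen.

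The 10 fibroblast markers summed to a range of 4101 to 4340 CPM in DSS, and of 1503 to 2240 CPM in DSS+BV, with 0 called by edgeR, 4 by DESeq2, 8 at an unadjusted p under 0.05 and all 10 below 0 (median log2 fold change -0.90). The 13 epithelial markers, all detected in this colon tissue, summed to a range of 12535 to 21360 CPM in DSS, and of 22040 to 41408 CPM in DSS+BV, with 0 called by edgeR, 2 by DESeq2, 6 at an unadjusted p under 0.05 and all 13 above 0 (median 0.57). Over all genes, edgeR called 0.0892%, and DESeq2 called 2.01% in either direction and 1.73% lower. At an unadjusted edgeR p under 0.05, 9.12% of all tested genes were lower and 3.4% higher. The 14 macrophage and monocyte markers (961 to 2133 against 653 to 1508 CPM, median -0.86), the 8 B and plasma cell markers (818 to 1867 against 520 to 1361 CPM, median -0.81), the 7 tested T cell markers (37.0 to 78.3 against 38.0 to 81.5 CPM, median -0.01) and the 8 smooth muscle markers (3507 to 4385 against 2702 to 4191 CPM, median -0.17) overlapped in their sums. The 8 endothelial markers summed to a range of 442 to 592 CPM in DSS, and of 307 to 390 CPM in DSS+BV (median -0.60), without overlap, as for the fibroblast and epithelial sums. The epithelial gap was narrow, from 21360 to 22040 CPM. Its abundant genes *Muc2* and *Car1*, named after their values were seen, overlapped between the groups. Of the 13 epithelial markers, 5 were higher in DSS+BV without overlap, beside 928 of all 14579 tested genes. The part of these cell types in the differences of the 7 genes was not tested.

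Genes with the pattern most like each of the 7 were found by Pearson's r of log2 CPM over the 6 libraries among 14075 genes, as a description. The nearest to *Cxcr2* was *S100a8* (r = 0.985), followed by *Rspo1* (0.984). *Lcn2*, a neutrophil and epithelial defence gene, was among the nearest to *Cxcl2* (0.994), and *Hp*, the acute-phase gene of haptoglobin, among the nearest to *Cxcl1* (0.995). The others were *Eml2* for *Cxcl1*, *Aptx* for *Cxcl2*, *Ptrhd1* and *Cyp7b1* for *Cxcl3*, *Adamts2* and *Sirpb1b* for *Cxcl5*, *Clip4* and *Kcna2* for *Csf3*, and *Ctbs* and *Arntl2* for *Csf3r*. Between 161 and 703 genes had an r over 0.9 with a given gene, since the points share the difference between the groups and number only 6.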

How the data were processed

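Colon RNA of 3 DSS and 3 DSS+BV mice was sequenced on a DNBSEQ-T7 instrument, and the authors deposited expected counts per gene from RSEM, neither scaled between libraries nor filtered as far as the table shows. The submitters' processing notes name HISAT2 2.1.0, Bowtie2 2.2.5, RSEM 1.2.8 and GRCm38.p6, without giving their roles. A value that was not whole occurred in 1573 genes (8.51%), and in none of the 7 genes described here.

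The 7 genes and the other gene lists were chosen with earlier results of these data known. Expected counts were rounded, genes were kept with filterByExpr (minimum count 10, minimum total 15), and libraries were scaled with TMM. The groups were tested by edgeR (version 4.0.16, R version 4.3.3) with its two-sided quasi-likelihood F-test, and p-values were adjusted by the Benjamini-Hochberg method over 14579 genes. Genes were called at an adjusted p under 0.05 and a log2 fold change beyond 1 in size, the thresholds of the study. Of each list, every called gene and otherwise the 2 genes with the highest mean CPM are named. Genes outside this rule are named as such or, near the ligands, by position. The 2 most correlated genes per member have a mean CPM of at least 1 and a prior count of 2 on the log2 scale. Lengths are those of the longest principal transcript in GENCODE M21, whose build is that of the files, and coordinates come from the same annotation. Promoters are from RefSeq.

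The alternatives tried were other scaling factors (RLE, upper quartile), DESeq2 (version 1.42.0), a looser and a stricter expression filter, a robust dispersion, unrounded counts, the replicate number as a block, each library left out in turn, and DSS 2 and DSS+BV 1 left out together. The test was tried on simulated data first. Library totals were 15293276 to 17254343 expected counts, and the biological coefficient of variation was 32.1%. With 3 mice against 3, an exact permutation test cannot give a p below 0.1. The labels give separate colon samples but no batch, date or cage, and p-values measure the spread between these samples. Reads carried no stated molecular identifiers. Intervals on counts come from counts summed over each group's mice, so they cover counting error only and leave out the spread between mice. Plots were made in Python (version 3.11.15) using matplotlib (version 3.10.9). Tables of the paper and the qPCR, metabolite and behaviour data were not used here.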

Additional observations from a re-analysis of the deposited data

How the results depend on the processing

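Of 105 fold changes of the 7 genes under alternatives, 0 reversed, 103 moved by less than 1 SD between replicates and 2 by more, *Cxcl5* (-5.31) and *Csf3r* (-2.54) with DSS 2 and DSS+BV 1 left out together. Counts of calls depended on the processing. DESeq2 called 7 of the 7 genes, 280 genes lower and 45 higher, 6 genes of the pathway lists (*Cebpb*, *Cxcl13*, *Il5ra*, *Il6*, *Osm* and *Ppbp*) and 10 neutrophil markers, where edgeR called 1, 13, 0, 0 and 4. DESeq2 also covered markers that the edgeR filter removed, and it called 9 of the 13 neutrophil markers that edgeR tested. With DSS 2 and DSS+BV 1 left out together, edgeR called 5 of the 7, 333 lower, 282 higher, 11 pathway genes and 9 neutrophil markers. That pair of libraries was picked from the clustering of these same data, which favours more calls. What else caused these differences was not tested. With the replicate number as a block, 0 of the 7 genes, 0 genes lower and 0 neutrophil markers were called. The labels do not say whether the numbers pair the mice. Deviations from the group means of same-numbered libraries correlated at r = 0.267, 0.255 and -0.296, and not every library correlated best with its own number. Deviations cancel within each small group, so these values cannot decide whether the mice were paired.

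With each library left out in turn, 0 of the 7 genes, 0 to 3 genes lower, 0 to 4 higher, 0 pathway genes and 0 to 3 neutrophil markers were called, from fewer samples. The highest counts were those without DSS+BV replicate 1. The median log2 fold change of the 7 genes then ran from -3.84 without DSS+BV replicate 2 to -3.48 without DSS+BV replicate 3. Single genes ranged most for *Cxcl5* (-5.04 to -3.53) and *Cxcl1* (-2.83 to -1.73). RLE or upper-quartile factors, other filters, a robust dispersion and unrounded counts left 1 of the 7 called. Depth limited *Cxcl3* and *Csf3* in DSS+BV, which rested on 11 and 10 counts in all.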
